A study of Saccharomyces cerevisiae with 12 samples.

Results

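The 26S proteasome is described here through 33 genes for its subunits and the gene RPN4, which encodes the transcription factor that activates them. These 34 genes were taken by their systematic identifiers out of 6692 gene entries counted in budding yeast (Saccharomyces cerevisiae). They comprise 14 subunits of the 20S core (7 in the alpha ring and 7 in the beta ring), 10 of the base of the 19S cap (6 ATPases and 4 others, RPN10 being placed here) and 9 of the lid. All 34 passed the filter on low counts. The study asked how transcription changes when the YEATS domain of Taf14 can no longer bind acetylated histone H3.

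Total RNA was sequenced in 4 groups of 3 libraries, all in the BY4741 background and all carrying a pRS313 plasmid marked HA3-SSN6. Wild type cells carried the empty vector. The deletion strain lacked the chromosomal TAF14 and carried the same empty vector. The TAF14 strain was that deletion strain with full-length TAF14 on the plasmid, and the W81A strain was the deletion strain with the plasmid-borne W81A mutant. TAF14 was therefore expressed from a plasmid and not from its own locus in both the TAF14 and the W81A strain. Nothing in the labels gives the origin of the replicates as cultures. The p-values therefore describe library-to-library spread, which may be technical. Libraries held 9007715 to 11662085 counts, and the least counted of the 34 genes had 513 counts in its lowest library. Levels are given as CPM, counts divided by the scaled library total. They are shares of a library, so more transcript per cell and more cells with transcript cannot be told apart.

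The proteasome degrades proteins that carry ubiquitin chains. Its core particle is a barrel in which the beta ring holds the proteolytic sites and the alpha ring gates the entrance. The cap binds the substrate through ubiquitin receptors, removes the chain in the lid and unfolds the protein with the ring of ATPases in the base. In budding yeast the subunit genes are activated together by Rpn4, which binds a promoter element called PACE. Rpn4 is itself a short-lived substrate of the proteasome, so that its protein level rises when proteasome activity falls. Only transcripts were measured here, and the amount of Rpn4 protein was not.

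The sites of this element are shown first, since they are what Rpn4 is known to bind. The 9 letters GGTGGCAAA were searched on both strands in the 300 bases before the start codon of every protein-coding gene of the R64 (sacCer3) build of RefSeq. They were found before 27 of the 33 subunit genes, or 81.8%, and before 73 of all 6001 genes, or 1.22%. The subunit genes made up 37.0% of all genes that held the element. It was present before 6 of 7 alpha, 6 of 7 beta, 6 of 6 ATPase and 7 of 9 lid genes, and before RPN1 and RPN2 of the base. Each of the 27 held it once, 76 (RPT6) to 175 bases (PUP3) before the start codon with a median of 112. In 19 it read toward the gene and in 8 it lay on the other strand.

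PRE5, PUP1 and RPN8 held the last 8 letters, GTGGCAAA, behind another first letter. RPN10, RPN13, SEM1 and RPN4 itself held neither form in this window. The 8 letters were found before 159 genes, or 2.65% of all. The sites below are those of genes to which the results return, followed by the 3 variant sites. Each is read on the strand of the element, with its 9 bases in capitals and the coordinates of those bases in front.
RPT4 (chrXV:813812-813820, plus strand): ttcccttcGGTGGCAAAttccacta
PRE7 (chrII:141160-141168, plus strand): actcaaagGGTGGCAAAaacaagcg
RPN11 (chrVI:153269-153277, plus strand): acctccaaGGTGGCAAAttcacaag
RPN12 (chrVI:252408-252416, minus strand): tttcaatgGGTGGCAAAtaatgtgt
PRE9 (chrVII:761233-761241, plus strand): accctgcaGGTGGCAAAaaatttat
RPT6 (chrVII:411362-411370, minus strand): gcgagcgaGGTGGCAAAagttgtaa
PRE5 (chrXIII:901562-901570, plus strand): tattatagAGTGGCAAAattaaaaa
PUP1 (chrXV:631901-631909, minus strand): cccggccgAGTGGCAAAataccaaa
RPN8 (chrXV:817095-817103, minus strand): gatacctcAGTGGCAAAtcgttact
The 9 bases are identical in RPT4 and PRE7, which changed most in the deletion strain, and in PRE9 and RPT6, which changed least. The 3 variants share AGTGGCAAA.

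The whole window is shown for RPT4, the element-bearing subunit gene with the largest change in the deletion strain, and for PRE9, the one with the smallest. Both are written 5′ to 3′ toward the start codon with the element in capitals, and in RPT4 it appears as its reverse complement. The far end of each window reaches the coding sequence of the neighbouring gene, GCD1 for RPT4 and CAF130 for PRE9.
RPT4 (chrXV:813709-814008, minus strand): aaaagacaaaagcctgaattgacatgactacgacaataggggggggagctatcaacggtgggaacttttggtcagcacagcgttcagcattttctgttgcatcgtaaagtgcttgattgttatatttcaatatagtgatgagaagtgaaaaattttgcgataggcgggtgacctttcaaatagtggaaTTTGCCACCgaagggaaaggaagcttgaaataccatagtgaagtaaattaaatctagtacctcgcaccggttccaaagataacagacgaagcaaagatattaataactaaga
PRE9 (chrVII:761092-761391, plus strand): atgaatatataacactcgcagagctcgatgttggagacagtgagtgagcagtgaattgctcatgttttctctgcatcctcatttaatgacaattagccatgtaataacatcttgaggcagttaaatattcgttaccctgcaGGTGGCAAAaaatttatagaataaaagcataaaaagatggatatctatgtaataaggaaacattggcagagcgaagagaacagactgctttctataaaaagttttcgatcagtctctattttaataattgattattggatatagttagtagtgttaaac

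The subunit transcripts had similar levels per length. In wild type the mean level per kilobase of coding sequence had a median of 163 CPM per kb over the 33 genes, from 77.7 ± 6.9 for PRE8 to 356 ± 33.9 for SEM1 (SD, n = 3). Of the 33, 31 lay within 1.5 times that median, and the same number did in each other strain. RPN4 lay lower, at 63.9 ± 1.5 CPM per kb. By subcomplex the wild type median was 195 CPM per kb in the alpha ring, 157 in the beta ring, 137 for the ATPases, 164 for the other base subunits and 164 in the lid. PRE8, an alpha-ring subunit, was the lowest of the 33 in all 4 strains, and SEM1, the short lid protein that other complexes share, was the highest.

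The libraries were checked for the deleted gene and for chromosome-wide shifts. TAF14 read 129 to 148 CPM in wild type and 0.199 to 0.484 in the deletion strain. It read 355, 143 and 302 CPM in the TAF14 strain and 192 to 223 in the W81A strain. The loss in the deletion strain was in accord with its label. Gene counts cannot tell the W81A allele from TAF14. Genes of chromosome XII stood higher than the other genes in the 3 deletion libraries and in replicate 2 of the TAF14 strain, where their median difference from the rest was 0.29 to 0.37 in log2, against -0.18 to -0.15 in the other 8 libraries. Of the 34 genes RPN13 alone lies on that chromosome. In comparisons with the deletion strain, loss of TAF14 and this chromosome-wide shift cannot be told apart.

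**Figure D1:**
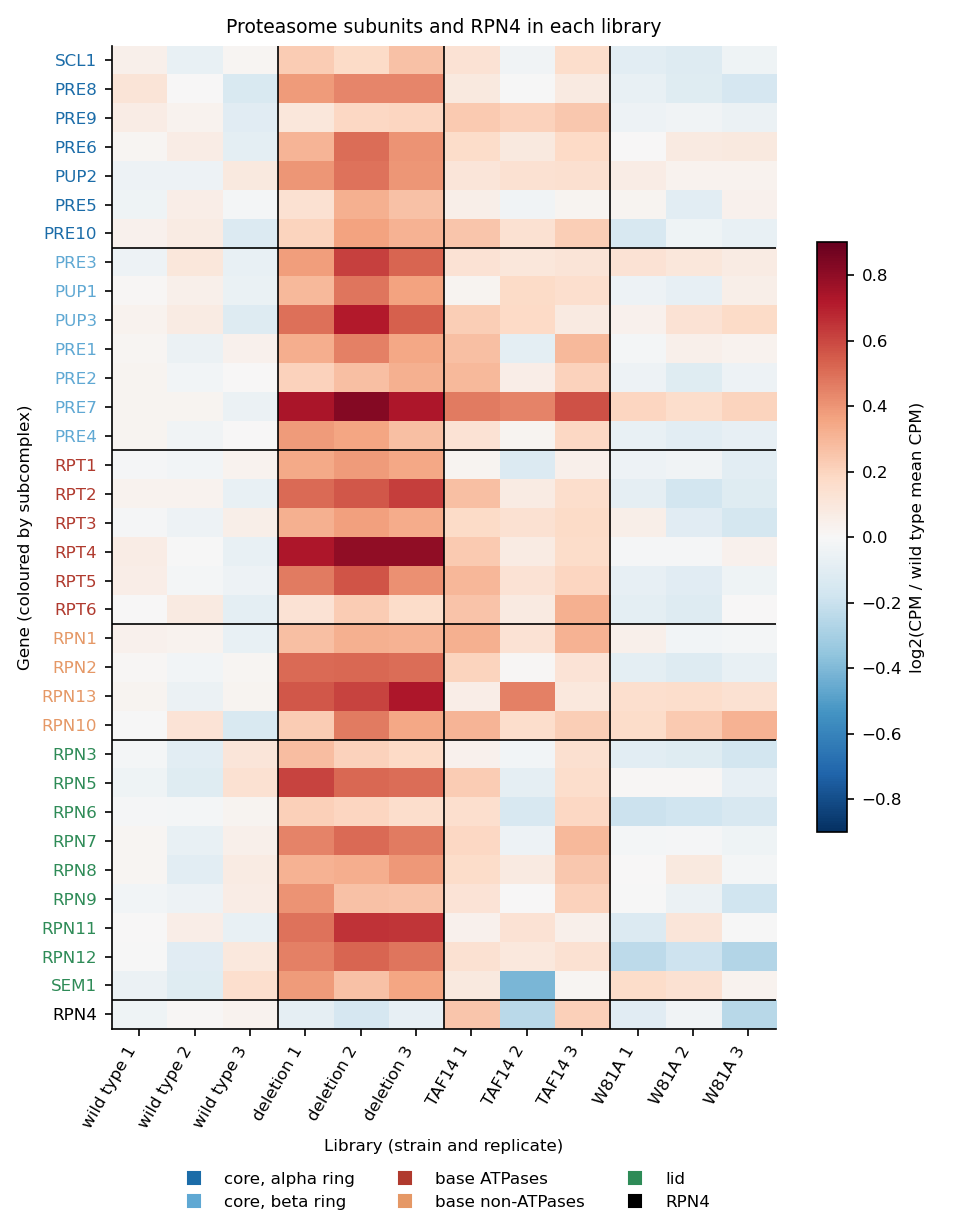
Level of each of the 33 subunit genes and RPN4 in the 12 libraries, as log2 of CPM over the wild type mean CPM of that gene, with genes in rows grouped by subcomplex and libraries in columns. The 3 deletion libraries are red throughout the subunit rows and not in the RPN4 row, and the W81A libraries lie near the wild type ones.

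In the deletion strain against wild type, all 33 subunit genes rose. The changes ran from 1.12-fold for PRE9 to 1.71-fold for RPT4, with a median of 1.30-fold (log2 0.38), while the median over all tested genes was -0.015. A gene was called where the edgeR quasi-likelihood test gave an adjusted p below 0.05 over all 5918 tested genes, and 24% of those were called higher and 24.9% lower. For each of the 33 genes the 3 deletion libraries lay above the 3 wild type libraries, which held for 28.6% of all tested genes (the reverse held for 29.6%). The 33 genes together had 5989, 5894 and 5957 CPM in the wild type libraries and 7727, 7996 and 7825 CPM in the deletion libraries. The summed level was thus 1.32 times that of wild type, and the groups were far apart against a spread of 48.2 and 136 CPM (SD, n = 3).

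All genes of core, base and lid rose, and differences between these groups were not tested. The 14 core genes had a median log2 fold change of 0.38, the 10 base genes 0.42 and the 9 lid genes 0.34. Their summed CPM rose to 1.30, 1.35 and 1.30 times wild type. Within the core the median was 0.29 in the alpha ring and 0.38 in the beta ring. The genes nonetheless differed among themselves: the 95% confidence interval lay above the median of the 33 for PUP3, PRE7, RPT2, RPT4, RPN2, RPN13 and RPN11, and below it for SCL1, PRE9, PRE5, RPT6, RPN3 and RPN6. Core, base and lid thus each held genes on either side. Within the core, those above were of the beta ring and those below of the alpha ring. In the base the gene below, RPT6, encodes an ATPase.

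In the alpha ring the largest change was that of PUP2 and the smallest that of PRE9, the only core subunit that yeast can live without. PUP2 had 156, 156 and 172 CPM in wild type against 212, 227 and 212 where TAF14 was deleted (log2 0.43 ± 0.05 SE, adjusted p = 3.26e-05 by edgeR). PRE9 (YGR135W, chrVII:761392-762168) had 173, 170 and 155 CPM in wild type against 178, 188 and 190 where TAF14 was deleted (0.16 ± 0.05, adjusted p = 0.0232). The PUP2 groups lay well apart, while the lowest deletion library of PRE9 was only just above the highest wild type library.

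In the beta ring PRE7 (YBL041W, chrII:141247-141972) had 116, 116 and 110 CPM in wild type against 190, 202 and 189 where TAF14 was deleted, a rise of 1.70-fold (0.76 ± 0.05, adjusted p = 2.32e-07). PRE2, which carries the chymotrypsin-like active site, rose least in this ring (0.27 ± 0.06, adjusted p = 0.00296). All 3 deletion libraries of PRE7 were higher than every other library in the study.

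Among the ATPases RPT4 (YOR259C, chrXV:812395-813708) had 175, 167 and 159 CPM in wild type against 276, 290 and 290 where TAF14 was deleted (0.77 ± 0.06, adjusted p = 3.49e-07). RPT6 (YGL048C, chrVII:410069-411286) had 169, 179 and 159 CPM in wild type against 185, 198 and 190 where TAF14 was deleted (0.18 ± 0.07, adjusted p = 0.0484). The ATPases assemble into a single ring with 1 copy of each. The 95% intervals of RPT4 (0.65 to 0.90) and RPT6 (0.03 to 0.32), the extremes of the 6, did not overlap.

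Of the other base subunits the scaffold and receptor RPN1 rose least (0.30 ± 0.06, adjusted p = 0.00157). RPN13 (YLR421C, chrXII:965090-965560), a ubiquitin receptor, had 75.3, 71.3 and 75.3 CPM in wild type against 109, 113 and 123 where TAF14 was deleted (0.63 ± 0.09, adjusted p = 0.000102). The 471 tested genes of chromosome XII had a median of 0.46 in this comparison, and the other genes -0.047. Leaving that chromosome out of the fit left 32 subunit genes, all of which were called higher, with a median of 0.40. In that fit 1264 of all tested genes were called higher and 1292 lower.

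In the lid RPN11 (YFR004W, chrVI:153393-154313), the enzyme that cuts the ubiquitin chain off the substrate, had 114, 119 and 109 CPM in wild type against 160, 179 and 178 where TAF14 was deleted (0.60 ± 0.07, adjusted p = 1.75e-05). RPN6, which clamps the lid to the core, rose least (0.19 ± 0.07, adjusted p = 0.0471). The calls of RPN6, RPT6, SEM1, PRE9 and RPN3 were lost under 1 or more of the alternatives tried. The other 28 were kept under all 13.

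**Figure D2:**
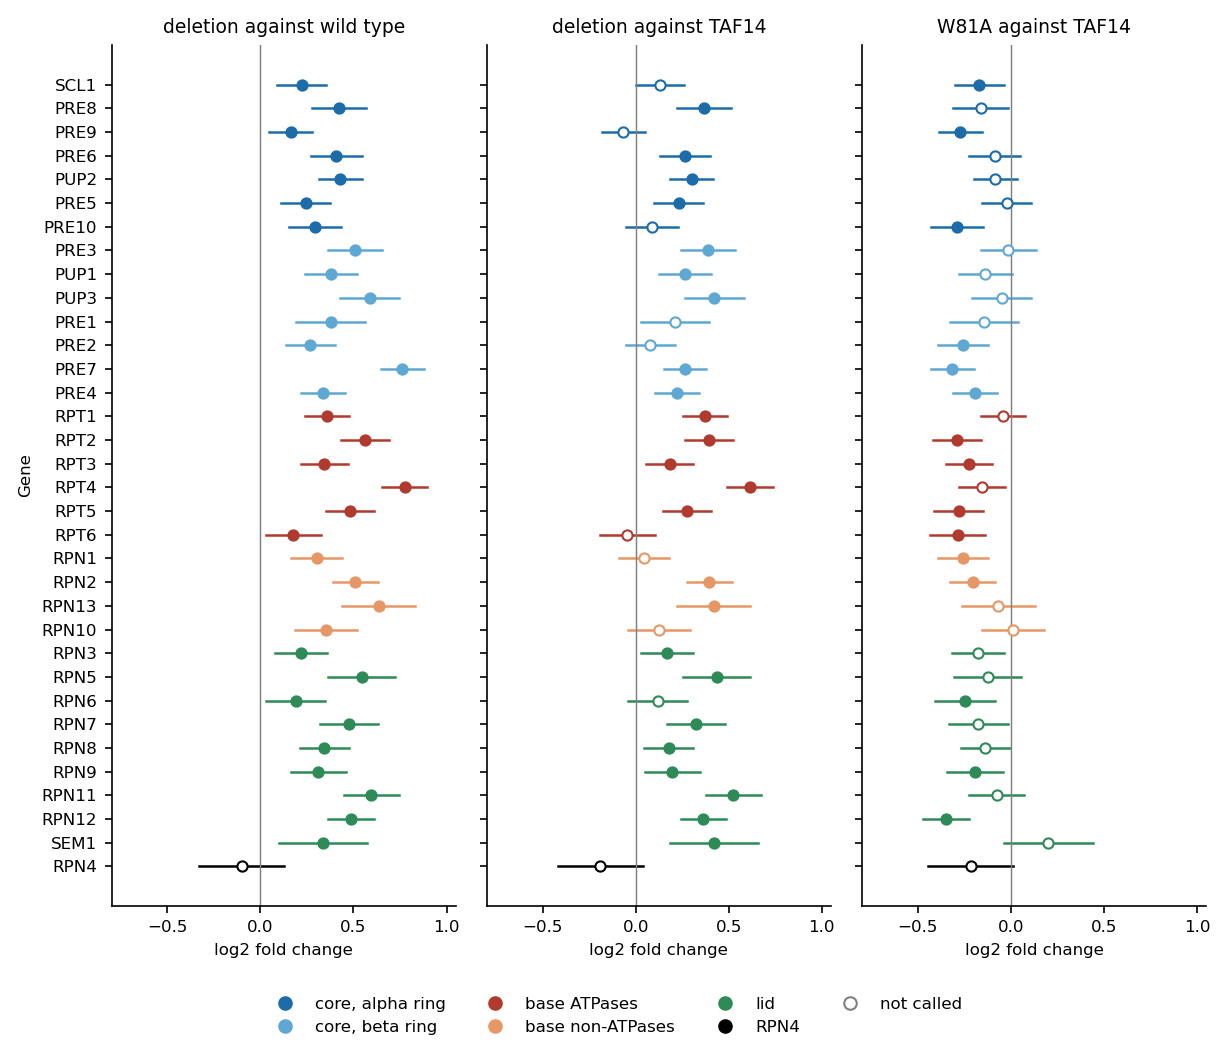
Log2 fold change of each gene (points) with its 95% confidence interval (lines) in 3 comparisons, coloured by subcomplex, filled where called and open where not. All 33 subunit genes lie right of 0 in the deletion strain against wild type, 24 are called higher against the TAF14 strain, and 15 are called lower with W81A than with TAF14.

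RPN4 did not rise with the genes it activates. RPN4 (YDL020C, chrIV:415113-416708, minus strand) had 99.3, 103 and 104 CPM in wild type, 96.5, 91.8 and 96.9 with TAF14 deleted, 121, 86.2 and 119 in the TAF14 strain and 94.99, 99.6 and 85.8 in the W81A strain. The deletion libraries lay just under the wild type ones, and the TAF14 and W81A ranges overlapped wild type. The deletion change was -0.10 ± 0.11 in log2 (95% interval -0.33 to 0.13, adjusted p = 0.448, not called by edgeR). The upper end of that interval, 1.09-fold, was under the smallest estimate among the 33 subunits. It was not under every subunit interval, since that of RPT6, given above, reached below it. RPN4 was called in none of the 6 comparisons when all libraries were used, with adjusted p between 0.137 and 0.867.

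The ratio of subunit counts to RPN4 counts was accordingly high in the deletion strain. It was 60.3, 57.4 and 57.2 in the wild type libraries, 80.1, 87.1 and 80.8 in the deletion strain, 55.9, 71.7 and 57.2 in the TAF14 strain and 61.7, 58.4 and 67.8 in the W81A strain. The lowest deletion library stood above every other library of the study. The ratio in the TAF14 replicate 2 library was the highest outside the deletion strain.

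**Figure D3:**
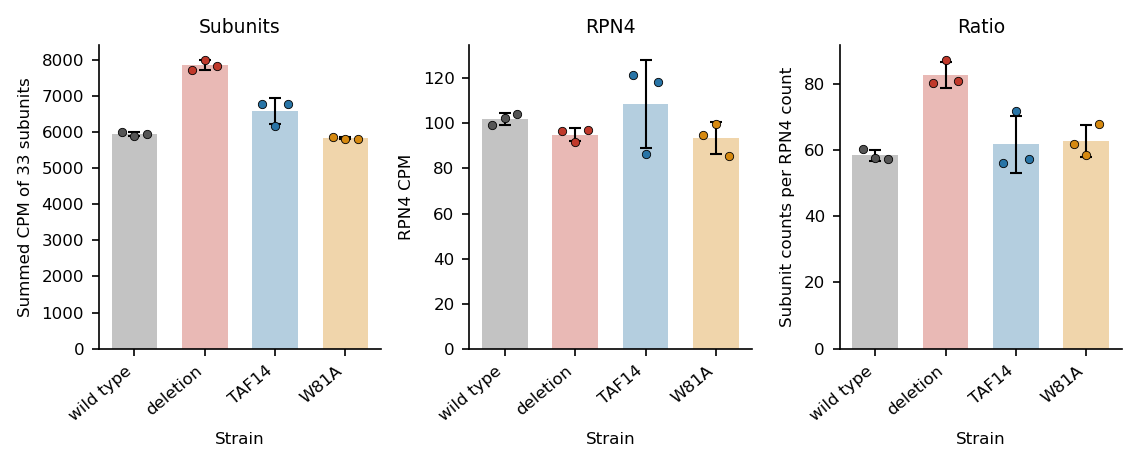
Summed CPM of the 33 subunit genes, CPM of RPN4, and subunit counts per RPN4 count, for the 4 strains. Bars are means, whiskers SD over 3 libraries and points single libraries. The deletion strain is highest for the subunits (7727 to 7996 CPM) and not for RPN4 (91.8 to 96.9 CPM).

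Against the TAF14 strain, which shares the deletion background and plasmid, 24 of the 33 subunit genes were called higher in the deletion strain and 0 lower, beside 24.1% of all tested genes called higher and 24.8% lower. The median was 0.26 in log2, against 0.00 over all tested genes. By part, 9 of 14 core, 7 of 10 base and 8 of 9 lid genes rose. The lid calls of RPN3, RPN8 and RPN9 were lost under 9, 4 and 4 of the 13 alternatives. The other 21 of the 24 were kept under all. RPT4 had 197, 175 and 187 CPM in the TAF14 strain and rose most (0.62 ± 0.06, adjusted p = 2.29e-06). RPN11 followed, with 117, 124 and 118 CPM in the TAF14 strain (0.52 ± 0.07, adjusted p = 4.29e-05). For both the deletion libraries lay clear of the TAF14 libraries. PRE9 and RPT6 had estimates below 0 and were not called (-0.07 ± 0.05 and -0.05 ± 0.07, adjusted p = 0.314 and 0.603). They were the only subunit genes with their highest mean in the TAF14 strain, the other 31 having it in the deletion strain. The 3 deletion libraries lay above the 3 TAF14 libraries for 26 genes and below them for 1, as for 26.5% and 27.6% of all tested genes. They lay above all 9 other libraries for 26 of the 33 as well. The share of all tested genes with that order was not computed.

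Within the TAF14 strain, replicate 2 differed from the other libraries in these genes too. Its summed subunit level was 6180 CPM, against 6784 and 6785 in replicates 1 and 3, and 28 of the 33 genes were lower in it than in both. PUP1, RPN13 and RPN11 were higher in it than in both, RPN13 with 101 CPM against 77.1 and 78.9. The shares of all tested genes lower or higher in that library were not computed. This library also carried the chromosome XII shift, and it had 143 CPM of TAF14 against 355 and 302 in replicates 1 and 3. The part of either in its subunit levels was not tested. Without it, 21 of 33 subunit genes were called higher where TAF14 was deleted than in the TAF14 strain (median 0.24). By part these were 9 of 14 core, 7 of 10 base and 5 of 9 lid genes. RPN4 was then called lower, at -0.34 (adjusted p = 0.000522 by edgeR), against TAF14 libraries of 121 and 119 CPM. The share of all tested genes called in that fit was not computed.

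With the W81A mutant in place of TAF14, 15 of the 33 subunit genes fell and 0 rose, leaving 18 without a call. The median was -0.17 in log2, against 0.00 over all tested genes, of which 17.2% were called lower and 15.8% higher. By part, 6 of 14 core, 6 of 10 base and 3 of 9 lid genes fell. For 19 genes the 3 W81A libraries lay below the 3 TAF14 libraries, as for 22.6% of all tested genes, and for 0 they lay above, as for 23.3%. The summed level was 5858, 5819 and 5812 CPM in the W81A libraries, 0.886 times that of the TAF14 strain. All 15 genes that fell held the full PACE element, out of 27 that held it, and 0 of the 6 without it were called. The difference between those 2 sets was not tested. Of 44 other tested genes that held the element, outside the subunits, 6 rose, 7 fell and 31 were not called, with a median of -0.040.

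RPN12 (YFR052W, chrVI:252505-253329), a lid subunit needed to complete lid assembly, fell most. It had 124, 121 and 124 CPM in the TAF14 strain and 96.2, 99.3 and 94.3 in the W81A strain (-0.35 ± 0.06, adjusted p = 0.000543 by edgeR). All 3 W81A libraries of RPN12 were below the 9 others, since wild type had 113, 105 and 121. PRE7 had 158, 155 and 169 CPM in the TAF14 strain and 130, 127 and 131 in the W81A strain (-0.32 ± 0.05, adjusted p = 0.000733). Here the TAF14 strain also stood above wild type, whose highest library had 116 CPM.

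The other 13 genes that fell had changes from -0.29 to -0.17. In the core they were PRE10 (-0.29 ± 0.07), PRE9 (-0.27 ± 0.05) and SCL1 (-0.17 ± 0.06) of the alpha ring, and PRE2 (-0.26 ± 0.06) and PRE4 (-0.19 ± 0.05) of the beta ring. In the base they were the ATPase genes RPT2 (-0.29 ± 0.06), RPT6 (-0.29 ± 0.07), RPT5 (-0.28 ± 0.06) and RPT3 (-0.23 ± 0.06), with RPN1 (-0.26 ± 0.06) and RPN2 (-0.21 ± 0.06). In the lid they were RPN6 (-0.25 ± 0.07) and RPN9 (-0.19 ± 0.07). Calls were lost for RPN9 under 9 of the 13 alternatives, SCL1 under 8, RPN6 under 5, PRE4 under 3 and RPN2 under 2. The other 10 of the 15 were kept under all 13. RPN4 was not called (-0.22 ± 0.11, adjusted p = 0.137). Without TAF14 replicate 2, 21 subunit genes were called lower, the 15 among them, and so was RPN4 (-0.36, adjusted p = 0.000594 by edgeR). Without TAF14 replicate 1 or without W81A replicate 2 the count was 10. The share of all tested genes called in these fits was not computed.

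The 6 comparisons share libraries and are not independent of each other. Set against wild type, the W81A strain had 2 subunit genes higher and 1 lower, with a median of -0.024, beside 12.7% of all tested genes called higher and 14.5% called lower. RPN10 (YHR200W, chrVIII:499079-499885), a ubiquitin receptor, had 122, 133 and 111 CPM in wild type and 137, 143 and 151 in the W81A strain (0.24 ± 0.08, adjusted p = 0.0375). PRE7 was the other higher gene (0.18 ± 0.05, adjusted p = 0.0237) and RPN12 the lower one (-0.23 ± 0.06, adjusted p = 0.0099). Over the 33, the W81A libraries lay wholly above wild type for 3 genes and wholly below for 8, where 23.6% and 24.4% of all tested genes did. The groups of the 3 called genes did not overlap, though the RPN10 and PRE7 calls were each lost when wild type replicate 1, wild type replicate 3 or W81A replicate 3 was left out, that of RPN10 also without W81A replicate 2 or with upper-quartile scaling, and that of PRE7 also without W81A replicate 1. The RPN12 call was kept under all 13 alternatives. The summed subunit level of the W81A strain was 0.980 times that of wild type.

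Tested directly against the deletion strain, the W81A strain had 31 of 33 subunit genes lower and 0 higher, with a median of -0.40 in log2, beside 22.5% of all tested genes called lower and 22.7% higher. RPN10 and SEM1 were not called (-0.11 ± 0.08 and -0.22 ± 0.11, adjusted p = 0.256 and 0.115). RPT4 had 165, 165 and 172 CPM in the W81A strain, against 276 to 290 in the deletion strain (-0.77 ± 0.06, adjusted p = 4.74e-07). RPN12 differed nearly as much (-0.71 ± 0.06, adjusted p = 8.65e-07). The 3 W81A libraries lay below the 3 deletion libraries for 32 genes and above them for 0, as for 28.5% and 29.3% of all tested genes. RPN4 read -0.02 ± 0.11 here (95% interval -0.25 to 0.20, adjusted p = 0.867 by edgeR).

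The strain with plasmid-borne TAF14 was also set against wild type. Here 6 subunit genes rose and 0 fell, with a median of 0.14, beside 8.11% of all tested genes called higher and 8.75% lower. They were PRE7 (0.50 ± 0.05, adjusted p = 8.25e-05), RPN1, PRE9, RPT6, RPT5 and PRE10, whose changes besides PRE7 lay between 0.20 and 0.26. Without TAF14 replicate 2 the count was 16, with 6 of 14 core, 7 of 10 base and 3 of 9 lid genes, and RPN4 was called higher at 0.23 (adjusted p = 0.017 by edgeR). Without chromosome XII genes it was 12, where 503 of all tested genes were called higher. The count was 2 without wild type replicate 3, TAF14 replicate 1 or TAF14 replicate 3 and 3 without wild type replicate 1. For the fits with a library left out, the share of all tested genes called was not computed. The TAF14 libraries lay wholly above wild type for 17 subunit genes and wholly below for 0, as for 16.1% and 17.4% of all tested genes. PRE7 alone was called under all 13 alternatives.

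In the deletion strain against wild type the 27 subunit genes with the full element had a median of 0.41 and the 6 without it 0.35, and all were called. The difference between these sets was not tested. Of 44 other tested genes that held the element, 21 rose, 2 fell and 21 were not called, with a median of 0.22, beside 24% of all tested genes called higher and 24.9% lower. Some of the 44 are counted again in the pathway lists below. Of the 39 outside those lists 16 rose and 2 fell, with a median of 0.16. In 8 of the 44 the site was the same bases as in a subunit promoter on the other side. Of the 8, 4 rose and 1 fell. Among them ALG13, which faces RPT6, rose by 0.90 (adjusted p = 1.13e-05) where RPT6 rose by 0.18. GCD1, which faces RPT4, was not called (-0.13, adjusted p = 0.161) where RPT4 rose by 0.77. These gene pairs were chosen after their values were seen.

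The pathway around the proteasome was described by 7 lists of genes outside the subunits. Of their 38 genes, 23 rose, 4 fell and 11 were not called in the deletion strain against wild type (median 0.28). Among them PBA1, IRC25, UBI4 and UBR2 lie on chromosome XII, whose tested genes had a median of 0.46. The counts without these genes were not computed. Of all tested genes 24% were called higher and 24.9% lower in this comparison, which are the shares against which each list is read. With W81A, 5 rose and 2 fell relative to wild type (median -0.046), shares near or below the 12.7% of all tested genes called higher and 14.5% called lower. Of 10 assembly chaperone genes, 5 rose and 1 fell in the deletion strain. UMP1, which is enclosed in the nascent core and is its first substrate, had 84.1, 79.7 and 79.9 CPM in wild type against 99.2, 103 and 104 where TAF14 was deleted (0.33 ± 0.06, adjusted p = 0.000502). PBA1, an alpha-ring chaperone gene on chromosome XII, changed most (1.01 ± 0.14, adjusted p = 8.6e-05). It also read 62.2 CPM in TAF14 replicate 2 against 40.2 and 38.2 in the other 2 libraries of that strain.

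Of 6 proteasome-associated factors 4 rose and 0 fell in the deletion strain, beside 24% of all tested genes called higher and 24.9% lower. ECM29, which tethers core and cap and holds the PACE element, had 232, 210 and 227 CPM in wild type, 357, 335 and 349 with TAF14 deleted, 307, 241 and 308 in the TAF14 strain and 183, 189 and 177 in the W81A strain. Its order over the strains was that of the subunit sum, with the 4 groups not overlapping. It rose in the deletion strain (0.64 ± 0.08, adjusted p = 5.45e-05) and fell with W81A relative to wild type (-0.29 ± 0.08, adjusted p = 0.0232). Of 3 shuttle factors, which carry ubiquitylated proteins to the cap, 2 rose, RAD23 by 0.28 ± 0.11 (adjusted p = 0.0401) with overlapping groups.

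Of 8 ubiquitin and ubiquitin-ligation genes 6 rose and 0 fell in the deletion strain, again beside 24% of all tested genes higher and 24.9% lower. UBI4 (YLL039C, chrXII:64062-65207), the stress-induced polyubiquitin gene, had 20.8, 22.5 and 17.7 CPM in wild type against 82.5, 79.6 and 75.9 where TAF14 was deleted, a rise of 3.90-fold (1.96 ± 0.15, adjusted p = 5.14e-07). This was far above the chromosome XII median of 0.46. In the other strains UBI4 had 20.5, 34.4 and 23.3 CPM (TAF14) and 19.7, 18.6 and 21.6 (W81A), so that TAF14 replicate 2 was again the high one of its group. CDC48, the segregase that extracts proteins for degradation, rose by 0.38 ± 0.07 (adjusted p = 0.000567), 1 of 3 among 4 Cdc48 genes to rise.

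The last 2 lists hold genes that act on Rpn4 or RPN4. Of the 3 for its degradation 2 rose and 1, MUB1, named after its value was seen, fell (-0.22, adjusted p = 0.0154). UBR2, the ubiquitin ligase of Rpn4, lies on chromosome XII and had 111, 99.3 and 119 CPM in wild type against 177, 139 and 143 where TAF14 was deleted (0.47 ± 0.12, adjusted p = 0.00692), near the median of its chromosome. Of the 4 factors known to activate RPN4, 1 rose and 2 fell, counts too small to set apart from the 24% and 24.9% of all tested genes. YAP1, of the oxidative stress response, rose (0.34 ± 0.09, adjusted p = 0.00974), and the drug-resistance factors PDR1 and PDR3 fell (-0.27 ± 0.08 and -0.48 ± 0.12, adjusted p = 0.0153 and 0.00534). HSF1, the heat shock factor, was not called (0.09 ± 0.07, adjusted p = 0.302). With W81A relative to wild type 0 of these 7 genes were called by edgeR, MUB1 having the lowest adjusted p (0.0589).

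**Figure D4:**
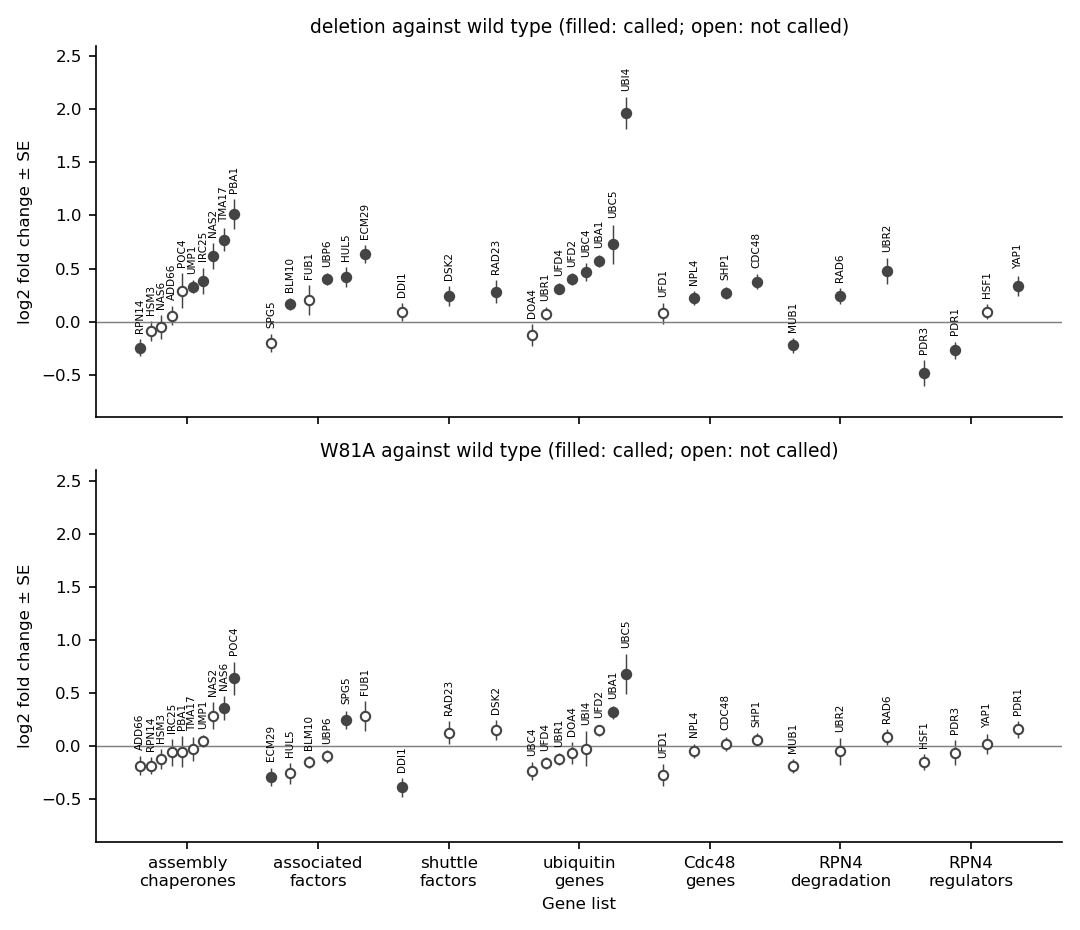
Log2 fold change ± SE of 38 genes around the proteasome, by list, in the deletion strain (top) and the W81A strain (bottom) against wild type, filled where called. UBI4 is the largest value in the top panel at 1.96 and lies near 0 in the bottom panel.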

How the data were processed

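The authors deposited a table of raw read counts, 1 column per library and 12 in all. According to the labels' protocols, RNA was phenol-extracted, DNase-treated, depleted of ribosomal RNA and made into stranded libraries. Per the submitters' processing notes, TopHat2 2.0.14, SAMtools 0.1.19, HTSeq 0.6.1p1 and DESeq2 1.8.1 were used with sacCer3, and the strand setting and annotation are not given in the sources used here. Identifiers were matched to R64, and 684 entries without a match (0.952% of counts) stayed in the fit.

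Counts were scaled by trimmed mean of M-values and filtered by the edgeR default, leaving 5918 genes. The quasi-likelihood test of edgeR 4.0.16 was used under R 4.3.3 (1 model of 4 groups, 8 residual degrees of freedom, biological coefficient of variation 8.59%). P-values were adjusted by Benjamini-Hochberg over all tested genes of a comparison. SE come from the F statistic. With blastn 2.17.0+ none of the listed genes matched another coding sequence at 95% identity or more, and none overlapped another coding gene annotated by RefSeq.

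All members were reported. Named genes were the extremes of each subcomplex in the deletion strain against wild type, those called in the W81A strain, and fixed or leading genes of 7 pathway lists. Members and lists were chosen with earlier results of these data known. Alternatives were DESeq2 1.42.0, 2 other scalings, no filter, 6 libraries alone, no chromosome XII, a replicate term and leaving out each library.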

Additional observations from a re-analysis of the deposited data

How the results depend on the processing

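The 13 alternatives per comparison comprised 7 settings and 6 left-out libraries. The call of 33 subunit genes higher in the deletion strain against wild type became 30 to 33 under other settings and 29 to 31 with a library left out. For the deletion strain against the TAF14 strain, 24 became 21 to 25 in both. For the W81A strain 31 lower genes against the deletion strain became 30 to 32, and 15 lower against the TAF14 strain became 12 to 18 under settings and 10 to 21 with a library left out. The small counts moved more. In the W81A strain against wild type, the 2 higher genes became 1 with upper-quartile scaling and 0 to 2 with a library left out, and the 1 lower gene became 2 with 6 libraries alone. In the TAF14 strain against wild type, the 6 higher genes became 3 with upper-quartile scaling, 1 with 6 libraries alone, 12 without chromosome XII genes and 2 to 16 with a library left out. Over all genes tested in each fit, settings other than 6 libraries alone called 1264 to 1471 higher in the deletion strain against wild type. For the deletion strain against the TAF14 strain this was 1357 to 1455. With W81A they called 1209 to 1371 lower against the deletion strain and 896 to 1045 against the TAF14 strain. Relative to wild type, upper-quartile scaling called 698 higher in W81A and 360 in TAF14, the latter 503 without chromosome XII genes. Shares were not computed for 6 libraries alone or for fits with a library left out.

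RPN4 crossed the threshold only without TAF14 replicate 2, in 3 comparisons: -0.34 in the deletion strain and -0.36 in the W81A strain, both relative to the TAF14 strain, and 0.23 for the TAF14 strain relative to wild type. With a library left out, those changes ran from -0.34 to -0.094, from -0.36 to -0.12 and from -0.00059 to 0.23, the last turning below 0 without TAF14 replicate 1. In the W81A strain against the deletion strain RPN4 ran from -0.073 to 0.034, turning above 0 without W81A replicate 3. None of the sign changes was called, and the cause was not tested. Against wild type RPN4 ran from -0.12 to -0.060 in the deletion strain and from -0.17 to -0.068 in the W81A strain.

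Replicate numbers gave no clear pairing of the libraries. Correlations of deviations ran from -0.24 to 0.34 between same-numbered libraries of different groups (18 pairs, median 0.029). Between other-numbered libraries they ran from -0.41 to 0.45 (36 pairs, median -0.018), and 5 of 12 libraries matched their own number best. Whether the libraries shared a grouping other than these numbers was not tested. With a replicate block, 32 subunit genes were called higher in the deletion strain against wild type, 24 against the TAF14 strain, and 4 for TAF14 relative to wild type. Of all tested genes 1401, 1446 and 440 were called higher in these comparisons, in that order. RPN4 kept its lack of a call in all 6 comparisons. Upper-quartile scaling, which moved the median of all genes most, put it at -0.024 for TAF14 relative to wild type.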
